A study of Mus musculus with 4 samples.

Results

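The immediate-early and dissociation-response genes described here were 10 genes matched by symbol in the gene lists of the matrices, out of 30406 genes listed in all 4 matrices: *Fos*, *Fosb*, *Jun*, *Junb*, *Egr1*, *Atf3*, *Ier2*, *Ier3*, *Dusp1* and *Nr4a1*. Immediate-early genes are transcribed within minutes of a stimulus from promoters that need no new protein synthesis, and their mRNAs are short-lived. Growth factors, cytokines and stress kinases all switch them on, and so do cutting, enzymatic digestion and sorting of a tissue, so in single-cell data they record handling as well as signaling in the animal. *Nr4a1* has a further role, since it encodes the orphan nuclear receptor on which patrolling (Ly6C low) monocytes depend.

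Cells were sorted from the popliteal lymphatic vessels (PLVs) and the superficial saphenous vein of the mouse calf and were sequenced by droplet-based 3′ single-cell RNA sequencing (scRNAseq) in 4 libraries, each from 3 pooled mice. Replicates tdT1 and tdT2 held tdTomato-positive (tdT+) cells of Cspg4-Cre;tdTomato mice (both sexes, older than 8 months), in which Cre under the *Cspg4* promoter marks cells for life, whether or not they still express *Cspg4*. The WT library (Wild-Type C57BL6, male, 9 months) and the TNF-Tg library (mice of the same age and sex that carry a TNF transgene and develop inflammatory-erosive arthritis) were sorted for high forward or side scatter without a reporter. All mice were kept on the C57BL/6J background. All 4 cell suspensions had been dissected, digested with Accumax for 1 h at room temperature and passed through a sorter, so no library without handling exists in the comparison, and transcription in the animal and transcription during handling cannot be told apart. The tdT1 cells were sorted with a narrower nozzle and sequenced on another instrument than the other 3 libraries. The paper lists further changes made after tdT1. Collection tubes were held filled with serum overnight, and a viability measurement before sequencing was left out. The reporter alleles, the tdT+ gate and the sort differed together between the tdT libraries and the WT and TNF-Tg libraries. The paper states that the experiments were done on separate days, so the day differs in every comparison between libraries, also between TNF-Tg and WT.

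The libraries held 454 to 5488 cells and 2357031 to 68773605 UMIs (unique molecular identifiers, each counting 1 captured RNA molecule), with medians of 4932.5 to 12660 UMIs per cell. The tdT1 library stood apart in RNA quality: 34.3% of its cells had more than 10% mitochondrial UMIs, beside 0.220 to 4.59% in the other 3. There were 11 barcodes that occurred in more than 1 library. Of 10837 cells, 8195 were assigned to 14 classes by the scores of 6 marker genes per class, and 41 sums of at least 10 cells of a class in a library were used. UMIs were summed within these, and levels are given as counts per 1000000 UMIs of the sum (CPM), and 4 values in a row stand in the order tdT1, tdT2, WT and TNF-Tg.

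Class names come from marker genes alone, and the labels of both stromal classes were checked against genes of muscle contraction. In the class with LMC markers (*Myoc*, *Pi16*, *Fndc1* and others) *Acta2* was at most 0.984 CPM and *Myh11* at most 0.472 CPM in any library. In the class with VSMC markers (*Cxcl14*, *Mgp*, *Gdf10* and others) they were at most 34.9 and 11.1 CPM. *Tagln* was at most 0.709 CPM in the former and 7.93 CPM in the latter, and *Cnn1* at most 0.0427 and 5.81 CPM. The muscle gene *Des* was detected, at 8.40 to 39.1 CPM in the former and 1.54 to 11.6 CPM in the latter. The fibroblast gene *Pdgfra* was at 410 to 546 CPM in the former and at 392 to 679 CPM in the latter. *Cspg4*, whose promoter drove Cre in the tdT mice, was at 0.703 to 3.36 and 1.51 to 7.50 CPM. The classes are therefore called the LMC-marker class and the VSMC-marker class, without a statement that they are muscle cells. The leukocyte gene *Ptprc* was at most 7.25 CPM in either. The paper identified its own clusters as muscle by *Cald1*, *Tpm1* and *Pdgfrb* and by a *Pdgfrb* reporter, evidence not examined here. It could not fully exclude myofibroblasts from the surrounding tissue.

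Promoters of the members are shown as background, and their relation to the levels below was not tested. Of the 10 members, 8 had an entry in the RefSeq promoter table for GRCm38.p6 (all but *Egr1* and *Ier2*). The 250 bases before the start were searched on both strands for TGACG (read as its reverse complement where it lies on the other strand), the core of the cAMP response element that CREB and ATF proteins bind. Among all windows of that length 17.8% held it, and 6 of the 8 members did. The sequences of the 3 members that the results below turn on most are given 5′ to 3′ on the strand of the gene, with the matches in capitals, for *Fos* (chr12:85473640-85473889, plus strand), *Dusp1* (chr17:26508473-26508722, minus strand) and *Nr4a1* (chr15:101266596-101266845, plus strand):
Fos: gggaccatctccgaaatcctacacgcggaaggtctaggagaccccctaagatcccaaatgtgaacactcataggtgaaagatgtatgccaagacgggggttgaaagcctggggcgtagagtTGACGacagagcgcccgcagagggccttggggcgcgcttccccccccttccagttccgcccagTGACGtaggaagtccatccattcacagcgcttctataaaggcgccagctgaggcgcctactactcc
Dusp1: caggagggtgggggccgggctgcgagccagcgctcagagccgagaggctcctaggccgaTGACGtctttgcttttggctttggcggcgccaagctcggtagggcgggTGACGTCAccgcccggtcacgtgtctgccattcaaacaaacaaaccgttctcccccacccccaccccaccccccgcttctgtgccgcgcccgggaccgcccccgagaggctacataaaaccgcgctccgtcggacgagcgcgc
Nr4a1: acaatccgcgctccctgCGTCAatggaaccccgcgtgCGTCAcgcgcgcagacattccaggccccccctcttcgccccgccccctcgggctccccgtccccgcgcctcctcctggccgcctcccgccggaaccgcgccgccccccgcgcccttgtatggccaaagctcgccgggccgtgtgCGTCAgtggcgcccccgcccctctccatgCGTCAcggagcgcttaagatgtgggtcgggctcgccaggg

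The *Fos* window held the motif at 129 and 66 bases before the start, the *Nr4a1* window at 233, 213, 69 and 40 bases, and the *Dusp1* window at 191, 143 and 140 bases, where the last pair overlaps as the full palindrome TGACGTCA. That palindrome occurred in 1.55% of all windows and in no other member. *Fosb* (60 bases), *Junb* (106 bases) and *Atf3* (7 bases) held TGACG, while *Jun* and *Ier3* did not in this window. The AP-1 motif TGANTCA (6.75% of all windows) and the CArG box (1.47%) were in none of the 8 member windows. Sequence farther upstream was not searched, and *Egr1* had no window, so these sites may lie elsewhere. A match is a description of the letters and no evidence of binding.

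Levels of the members were highest in the tdT1 library. Their share of all UMIs was 1.96%, 0.751%, 0.558% and 0.421%. In the LMC-marker class their summed level was 18731, 5647, 4135 and 3345 CPM. In the VSMC-marker class it was 24865, 6737, 3993 and 3830 CPM in the same order. Both stromal classes thus held the highest sum in tdT1, with smaller steps between the other 3 libraries. The tdT2 sum of the LMC-marker class was carried by part of its cells: the median cell was at 2561 CPM (quartiles 1097 and 7578), below the median WT cell at 3629 CPM (quartiles 1541 and 5881).

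**Figure D1:**
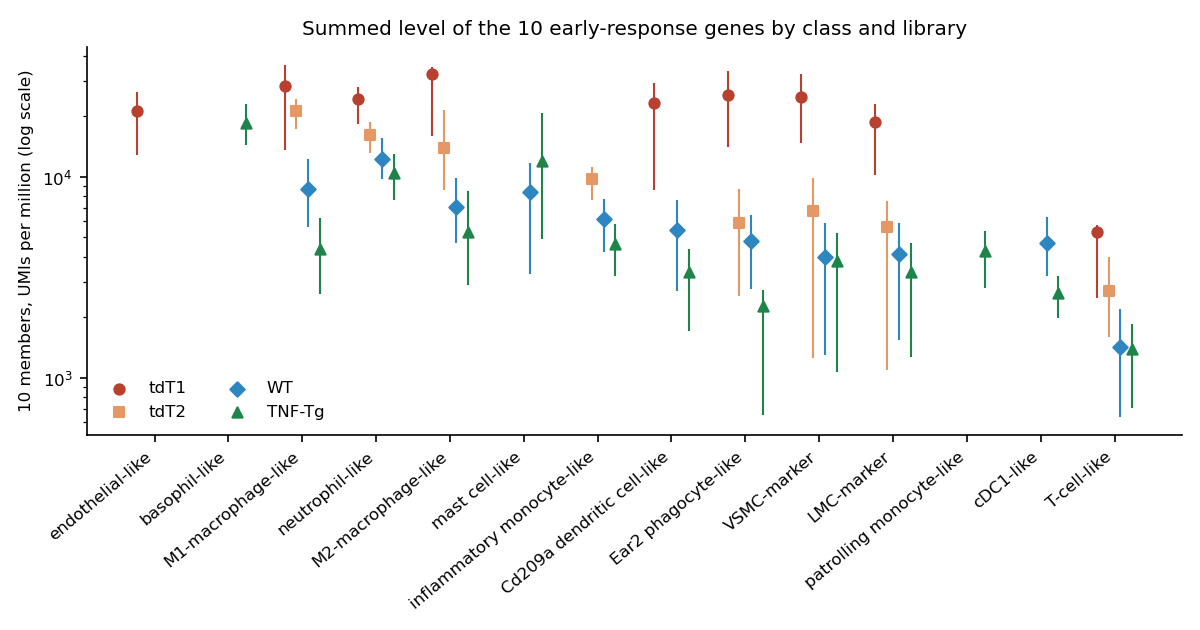
Summed level of the 10 members (CPM, log axis) in each class with at least 10 cells; each point is 1 class in 1 library and its bar the quartiles over cells. In the LMC-marker class the tdT1 point lies at 18731 CPM and the other 3 between 3345 and 5647 CPM, and T-cell-like cells lie lowest in every library.

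The same order was seen in leukocytes. M2-macrophage-like cells (markers *Lyve1*, *Folr2*, *Cd163*) were at 32547, 13969, 7096 and 5294 CPM in tdT1, tdT2, WT and TNF-Tg. For M1-macrophage-like cells (*C1qa*, *Ccr2*, *H2-Aa*) the sums were 28238, 21311, 8742 and 4385 CPM. Neutrophil-like cells (*S100a8*, *Retnlg*) were at 24518, 16247, 12281 and 10448 CPM, the narrowest range of these classes. T-cell-like cells were at 5326, 2709, 1424 and 1390 CPM. All 7 classes with 10 or more cells in every library kept tdT1 highest and TNF-Tg lowest for the sum. Leukocytes in the tdT libraries were few, from 11 to 30 cells in tdT1 and in tdT2, and M1- and M2-macrophage-like cells of tdT1 were shallow (medians of 2467 and 1966.5 UMIs per cell).

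Over the 10 members and these 7 classes there were 70 values per library. tdT1 was the highest of the 4 libraries for 59 of the 70, beside 34.0% of all gene and class values, and TNF-Tg was the lowest for 51, beside 26.3%. Both tdT libraries lay above both WT and TNF-Tg for 54 of the 70, beside 19.2% of all gene and class values. All 10 members did so in M2-macrophage-like cells, 9 in VSMC-marker, M1-macrophage-like and Ear2 phagocyte-like cells, and 7 in LMC-marker cells. Neutrophil-like cells had only 4 such members (*Junb*, *Atf3*, *Ier2* and *Nr4a1*). *Ier3* failed the order in 5 of the 7 classes. The distance between the replicate tdT libraries was itself wide: the median member was 4.19 times higher in tdT1 than in tdT2 in LMC-marker cells, 4.62 times in VSMC-marker cells and 5.20 times in Ear2 phagocyte-like cells, and 1.22 times in M1-macrophage-like cells.

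*Fos* encodes a subunit of the AP-1 transcription factor, which binds DNA as a Fos-Jun dimer. In LMC-marker cells it was at 4407, 1632, 1137 and 779 CPM. M1-macrophage-like cells held *Fos* at 6368, 6278, 2837 and 1778 CPM, so there the 2 tdT libraries lay close together. *Fosb*, a related subunit, was at 1514, 287, 191 and 96.1 CPM in LMC-marker cells and at 3098, 944, 477 and 107 CPM for M1-macrophage-like cells. Both genes were lowest in T-cell-like cells when averaged over libraries, *Fos* at 436, 732, 301 and 167 CPM.

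*Jun* and *Junb* encode the partners of Fos proteins. *Jun* in LMC-marker cells was at 2474, 1432, 901 and 562 CPM. In neutrophil-like cells *Jun* ran the other way, at 82.6, 299, 342 and 321 CPM, with the lowest value in the 11 cells of tdT1. *Junb* in neutrophil-like cells was at 6246, 4961, 2795 and 2988 CPM. LMC-marker cells held *Junb* at 2370, 619, 596 and 695 CPM, where only tdT1 stood clear of the rest.

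*Egr1* encodes a zinc-finger factor induced through serum response factor. LMC-marker cells held it at 4250, 775, 466 and 413 CPM, and neutrophil-like cells at 4953, 256, 460 and 294 CPM. *Egr1* in T-cell-like cells was at 151, 10.0, 29.4 and 16.4 CPM. *Atf3*, a stress-induced member of the ATF/CREB family, was at 769, 92.4, 59.6 and 32.9 CPM in LMC-marker cells and at 3151, 407, 81.8 and 44.2 CPM for M2-macrophage-like cells. It was close to undetected in T-cell-like cells, with 17.8, 20.1, 1.84 and 0 CPM (3 UMIs would be 7.03 CPM in TNF-Tg).

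*Dusp1* encodes a phosphatase that switches off stress-activated MAP kinases. It was at 1051, 284, 369 and 249 CPM in LMC-marker cells, and at 6329, 3369, 3512 and 2068 CPM in neutrophil-like cells, so every neutrophil-like sum lay above every stromal sum. *Ier2*, a nuclear immediate-early protein, was at 1348, 1464, 1120 and 1262 CPM in neutrophil-like cells, nearly level over the libraries, and at 1327, 429, 333 and 379 CPM in LMC-marker cells. *Ier3*, an early gene linked to cell survival, was at 195, 15.1, 43.7 and 103 CPM in LMC-marker cells. The highest *Ier3* level was in the 58 basophil-like cells of TNF-Tg at 3989 CPM, a class with too few cells in the other libraries.

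**Figure D2:**
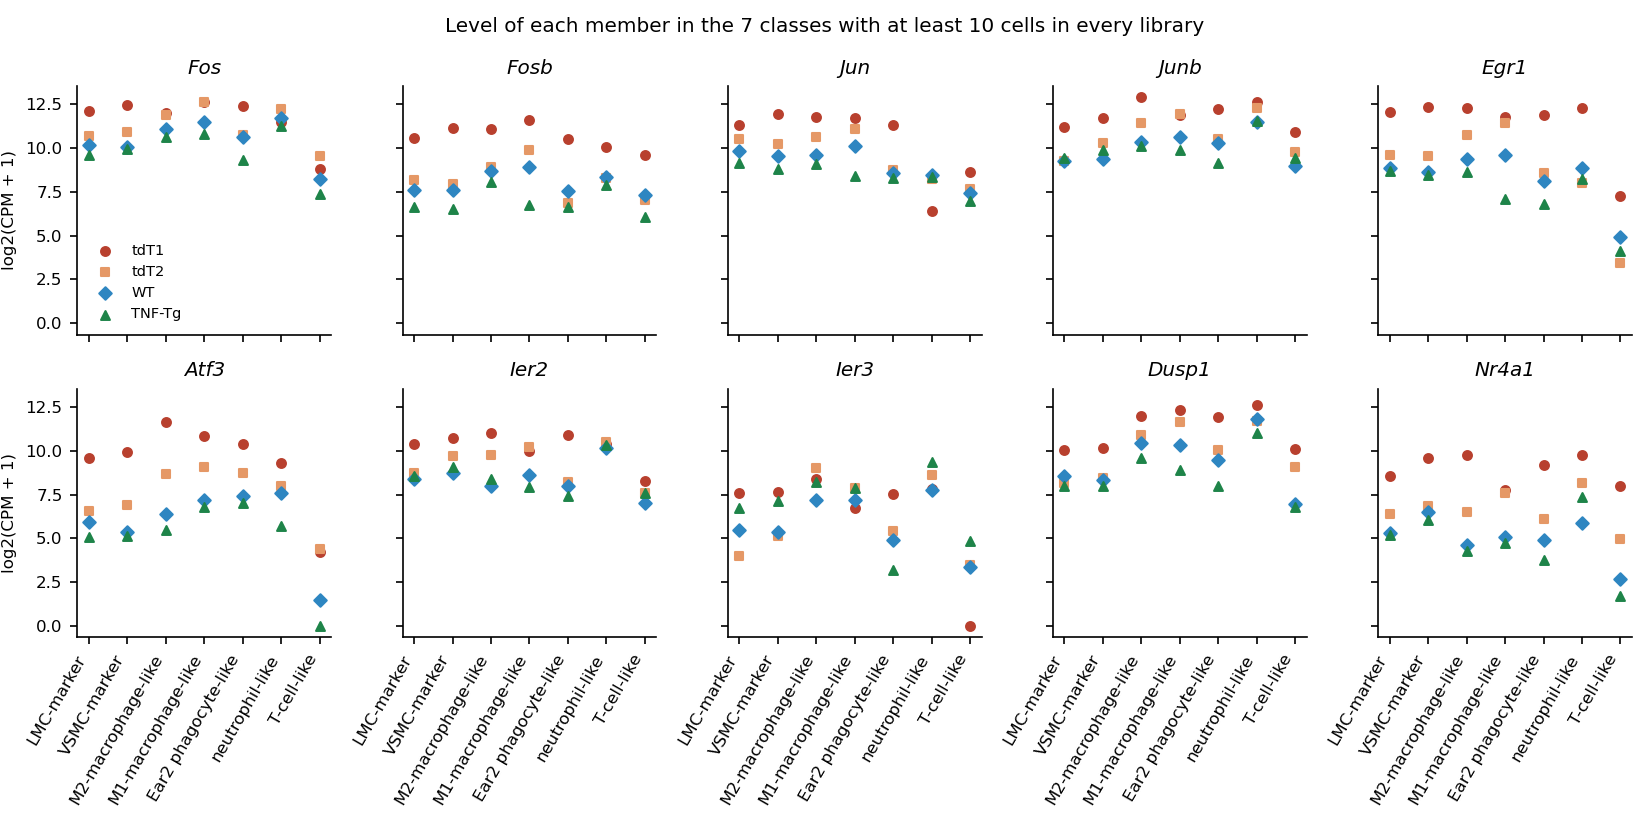
Level of each member, log2(CPM + 1), in the 7 classes with at least 10 cells in every library; each panel is 1 member and each point 1 library. The tdT1 point is highest for 59 of the 70 member and class values, and the T-cell-like points of *Egr1* and *Atf3* lie below those of the other classes in each library.

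Cell classes were ordered by their summed level after centering each library, over the 7 classes with all 4 libraries. On this log2 scale neutrophil-like cells stood at 1.00 ± 0.53 (SD, n = 4 libraries), M1-macrophage-like cells at 0.71 ± 0.48 and M2-macrophage-like cells at 0.60 ± 0.12. VSMC-marker cells followed at −0.08 ± 0.31, Ear2 phagocyte-like cells at −0.24 ± 0.46, LMC-marker cells at −0.28 ± 0.21 and T-cell-like cells at −1.70 ± 0.23. The 3 highest classes were not separated by their spread, and neither were the next 3. M2-macrophage-like exceeded VSMC-marker cells in 4 of 4 libraries, by 0.68 ± 0.31, and LMC-marker exceeded T-cell-like cells in 4 of 4, by 1.42 ± 0.33. T-cell-like cells were the lowest class in 26 of 40 member and library ranks, and neutrophil-like cells were among the 3 highest in 23 of 40.

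Stromal classes were compared with leukocyte classes within libraries, as edgeR's quasi-likelihood test on the sums with library as a block and a call at a Benjamini-Hochberg adjusted p under 0.01. The block removed the level of each library, so p-values measure the spread of class sums around the class and library terms. Several sums of 1 library count there as separate observations, although only 4 libraries exist. Each side was the unweighted mean of its classes, and basophil-like and patrolling monocyte-like cells had a sum in TNF-Tg only. Basophil-like cells held the highest *Junb* level of that library, at 5204 CPM. *Dusp1* was lower in the stromal classes by a log2 difference of −1.31 (SE 0.23, adjusted p = 3.58e-06), and so was *Junb* at −0.76 (SE 0.20, adjusted p = 0.00124). Stromal classes had higher levels for 35.9% and lower levels for 12.3% of 12046 genes tested, so 2 of 10 lower members lie close to the background. *Egr1* (0.69, SE 0.24, adjusted p = 0.0135) and *Jun* (0.66, SE 0.24, adjusted p = 0.0185) did not pass. *Fos* differed by −0.25, *Fosb* by −0.19, *Nr4a1* by 0.23 and *Atf3* by 0.48, with SEs of 0.23 to 0.78. The median member was at −0.09, beside 0.33 for all genes tested. Without the tdT1 library 5 members were called (1 higher and 4 lower), and the *Junb* call was lost without tdT2, WT or TNF-Tg (adjusted p = 0.0137, 0.048 and 0.0995 in edgeR). Without the library block 1 member was higher and 0 were lower, and the median member was at 0.62.

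Other early-response genes were called in both directions in the same fit, more often lower in stromal classes. Of 39 tested genes of a list fixed with the members, 11 were higher and 18 lower there, beside 35.9% and 12.3% of all genes. The median of the list was −0.75, beside 0.33 for all genes. *Cyr61*, which encodes a secreted matricellular protein, led the former with a log2 difference of 5.60, followed by *Cebpd* (3.19) and *Gadd45g* (3.19). The MAP kinase phosphatases *Dusp2* (−6.30) and *Dusp5* (−4.92) and the zinc-finger factor *Egr2* (−3.19) led the latter. Of 14 heat shock and chaperone genes 9 were higher, beside the same 35.9%, and 2 were slightly lower (*Dnajb1* −0.49, *Hspa8* −0.48). At the top were the small heat shock proteins *Cryab* (6.30) and *Hspb1* (6.22) and the inducible Hsp70 gene *Hspa1b* (4.91).

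Neutrophil-like cells exceeded the unweighted mean of the other leukocyte classes for most members. *Dusp1* was higher by a log2 difference of 2.39 (SE 0.24, edgeR adjusted p = 5.00e-11), *Ier3* by 2.13 (SE 0.37, adjusted p = 5.04e-06) and *Atf3* by 2.03 (SE 0.47, adjusted p = 0.000446). *Nr4a1* (1.79), *Ier2* (1.78), *Junb* (1.64) and *Fos* (1.23) were also called, which made 7 of 10 members higher beside 19.3% of all genes, and 13.8% of genes were lower. *Egr1* (0.78, adjusted p = 0.047), *Fosb* (0.75, adjusted p = 0.042) and *Jun* (−0.48, adjusted p = 0.30) did not pass. Among all classes of a library, stromal ones included, *Dusp1* ranked 1 in neutrophil-like cells in each library. *Atf3* ranked 8 of 9 in tdT1, 5 of 8 in tdT2, 3 of 11 in WT and 6 of 13 in TNF-Tg. *Fos* ranked 8 of 9, 2 of 8, 1 of 11 and 2 of 13 in the same order. A call against the mean thus did not place neutrophil-like cells above each other class. With scaling to total UMIs alone the median of all genes moved from −0.19 to −0.83, 5 members were higher and *Jun* was lower (−1.13). Early-response genes of the list were higher for 27 of 39 and lower for none, led by *Fosl1* (4.34), *Cebpd* (3.89) and *Plk3* (3.78). Heat shock genes were mostly not: *Dnajb1* (1.01) and *Dnaja1* (0.73) were higher, and 5 of 14 were lower, led by *Hsph1* (−3.32), *Hspe1* (−3.24) and *Hspd1* (−2.85).

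**Figure D3:**
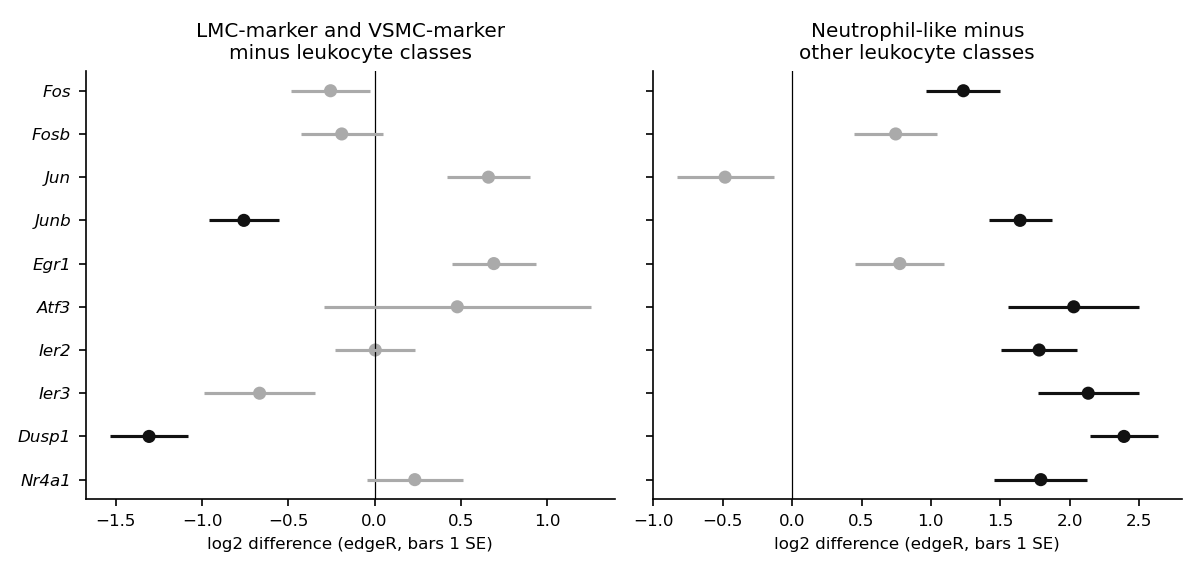
Log2 difference of each member between classes within libraries (edgeR, bars are 1 SE), in black for an adjusted p under 0.01 and in gray otherwise. *Dusp1* lies at −1.31 for stromal against leukocyte classes and at 2.39 for neutrophil-like against the other leukocyte classes.

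No member passed in the main fit between the stromal classes or between the M2- and M1-macrophage-like classes. Between LMC-marker and VSMC-marker cells 0 of 10 members passed, beside 7.68% of all genes. 1 member had an unadjusted p under 0.05, *Nr4a1*, at −0.99 (SE 0.36, edgeR adjusted p = 0.0808), and DESeq2 also called 0. *Nr4a1* was at 374, 82.4, 38.8 and 36.0 CPM in LMC-marker cells and at 758, 113, 91.1 and 64.7 CPM in VSMC-marker cells of tdT1, tdT2, WT and TNF-Tg, so it was lower in the LMC-marker class in 4 of 4 libraries. From the fixed lists *Egr3* (−2.57), the *Nr4a1* relative *Nr4a2* (−1.86), *Gadd45g* (−1.53) and *Hspa1b* (−1.35) passed, all lower in LMC-marker cells. M2- against M1-macrophage-like cells gave 0 of 10 members beside 3.29% of genes, with 0 at an unadjusted p under 0.05 and 0 by DESeq2, and *Cyr61* (2.71) was the only early-response gene called. SEs of 0.33 to 0.55 leave differences of the size seen between LMC-marker and VSMC-marker cells unresolved.

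The sorts were compared within each class, 2 tdT libraries against WT and TNF-Tg. LMC-marker cells gave 0 of 10 calls beside 0.00868% of genes, with 7 members at an unadjusted p under 0.05 and a median log2 difference of 1.47. VSMC-marker cells gave 0 beside 0.0198%, with 8 at an unadjusted p under 0.05 and a median of 1.86. Ear2 phagocyte-like cells gave 0 beside 0.0509%, with 10 and a median of 2.35. Neutrophil-like cells gave 0 beside 0.0%, with 1 and a median of 0.54, and T-cell-like cells 0 of 6 tested members beside 0.0%, with 3 and a median of 1.13. The wide gap between tdT1 and tdT2 enters these errors. DESeq2 called 1 member in LMC-marker, VSMC-marker and T-cell-like cells, and without tdT2 edgeR called 5, 4 and 5 in the same classes. Ear2 phagocyte-like cells moved most, to 10 of 10 with a stricter gate and 8 without a filter on low counts. Without tdT2, where tdT1 stands alone, their median log2 difference was 2.92. Their tdT2 sum held 11 cells, near the minimum for a sum, so the stricter gate may also have left tdT1 alone.

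Macrophage-like cells held the calls. In M2-macrophage-like cells *Nr4a1* was at 850, 90.3, 23.3 and 18.2 CPM in tdT1, tdT2, WT and TNF-Tg, and its log2 difference was 4.11 (SE 0.51, edgeR adjusted p = 2.06e-12). *Atf3* differed by 4.52 (SE 0.66, edgeR adjusted p = 1.39e-08), and 0.149% of genes were called. In M1-macrophage-like cells *Atf3* was at 1849, 543, 145 and 108 CPM and differed by 3.16 (SE 0.70, edgeR adjusted p = 0.0019), and *Nr4a1* by 2.66 (SE 0.63, edgeR adjusted p = 0.00444), beside 0.563% of genes. These sums rest on 12 to 30 cells in each tdT library. Without cells of low quality neither M1-macrophage-like call passed. The log2 differences were then 3.28 for *Atf3* and 2.73 for *Nr4a1* (edgeR adjusted p = 0.079 and 0.074), no smaller than with all cells. For M2-macrophage-like cells this filter took the tdT1 sum below 10 cells, so the setting is the same comparison as leaving tdT1 out. With tdT2 alone against WT and TNF-Tg the log2 differences were 2.42 for *Atf3* and 1.85 for *Nr4a1*. Both were smaller than with tdT1 included, and a single library on a side is no test. The M2-macrophage-like calls therefore rest on a tdT1 sum of 12 cells. From the lists *Egr3*, *Csrnp1* and *Nfkbiz* led in M2- and *Csrnp1*, *Ppp1r15a* and *Gadd45b* in M1-macrophage-like cells, with log2 differences of 2.72 to 4.02, and *Hspa1a* differed by 3.08 in the latter.

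Whether the difference between stromal cells and leukocytes changed between the tdT libraries and WT and TNF-Tg was tested as an interaction. Each class sum counts as an observation there, although the sort varied only between libraries and together with the reporter alleles. Some leukocyte classes (patrolling monocyte-like, basophil-like, mast cell-like and cDC1-like) had sums only in WT or TNF-Tg. The interaction gave 0 of 10 members beside 0.149% of genes, and 0 members with an unadjusted p under 0.05. The member estimates ran from −0.58 (*Nr4a1*) to 0.76 (*Fosb*), with SEs of 0.37 to 0.59. *Hspa1a* was the only gene of the lists called, at −2.33, a lower difference between stromal cells and leukocytes in the tdT libraries than in WT and TNF-Tg.

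Mitochondrial content moved with single members in opposite directions within tdT1. In LMC-marker cells of tdT1, 178 cells above 10% mitochondrial UMIs held *Fosb* at 4240 CPM and 506 cells below it at 1363 CPM, while *Fos* was at 1656 and 4560 CPM and *Ier2* at 556 and 1370 CPM. The summed members were at 13705 and 19009 CPM there and at 27537 and 24798 CPM in VSMC-marker cells, so the sum had no common direction. *Fosb* was also at 8033 and 2086 CPM in VSMC-marker cells (19 and 160 cells) and in M1-macrophage-like cells at 7469 and 2265 CPM (16 and 14 cells). In WT, *Fosb* was at 610 and 402 CPM in M2- and at 308 and 478 CPM for M1-macrophage-like cells, without a common direction.

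TNF-Tg and WT were 1 library each, made on separate days, so values are compared without a test. The exact conditional 95% intervals cover counting error only. Ratios are on the log2(CPM + 1) scale. The median member was below WT in 10 of 11 classes, from a log2 ratio of −1.14 in Ear2 phagocyte-like cells to 0.24 in mast cell-like cells, the latter −0.41 after TMM scaling. The median of all genes ran from −0.23 to 0.06 over the classes, and the members lay near it in VSMC-marker cells (−0.22 beside −0.19) and T-cell-like cells (−0.28 beside −0.23). Of 107 member and class values of at least 10 CPM in either library, 24 were at least 2-fold lower in TNF-Tg, beside 12.4% of all genes (1 of the 24, *Atf3* in mast cell-like cells, had no UMI in TNF-Tg), and 12 were at least 2-fold higher, beside 7.34%. *Dusp1* and *Jun* were lower in 11 of 11 classes, and *Fos*, *Fosb* and *Egr1* in 10 of 11. The interval lay below 0 in 10 classes for *Dusp1*, *Fos* and *Fosb*, in 9 for *Egr1* and in 7 for *Jun*. No share of all genes stands beside these class counts. *Fosb* was at 477 CPM in WT and 107 in TNF-Tg in M1-macrophage-like cells (−2.14, interval −2.34 to −1.97) and at 216 and 26.1 CPM in cDC1-like cells (−3.00, interval −4.02 to −2.21). *Egr1* was at 755 and 135 CPM for M1-macrophage-like cells (−2.47, interval −2.65 to −2.32), and at 466 and 413 CPM in LMC-marker cells (−0.18, interval −0.23 to −0.12).

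*Ier3* went against the other members. Its level was higher in TNF-Tg in 10 of 11 classes, by 2-fold or more in 7, with a median log2 ratio of 1.22. LMC-marker cells held *Ier3* at 43.7 CPM in WT and 103 in TNF-Tg (1.22, interval 1.10 to 1.38), VSMC-marker cells at 40.9 and 142 CPM (1.77, interval 1.57 to 2.02) and neutrophil-like cells at 213 and 660 CPM (1.63, interval 1.42 to 1.85). The exception was the Ear2 phagocyte-like class, where TNF-Tg had 16 cells and 2 *Ier3* UMIs (−1.70, interval −4.88 to 0.06). *Junb* was higher in 6 and lower in 5 classes, and *Ier2* higher in 7 and lower in 4. *Nr4a1* was higher in 2 of 9 classes, at 62.5 and 162 CPM in inflammatory monocyte-like cells (1.36, interval 0.98 to 1.80) and at 57.9 and 165 CPM in neutrophil-like cells (1.49, interval 1.08 to 1.94). *Atf3* in mast cell-like cells had 5 UMIs in WT and 0 in TNF-Tg, where the class held 21 cells and 3 UMIs would be 123 CPM, so no ratio is given.

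**Figure D4:**
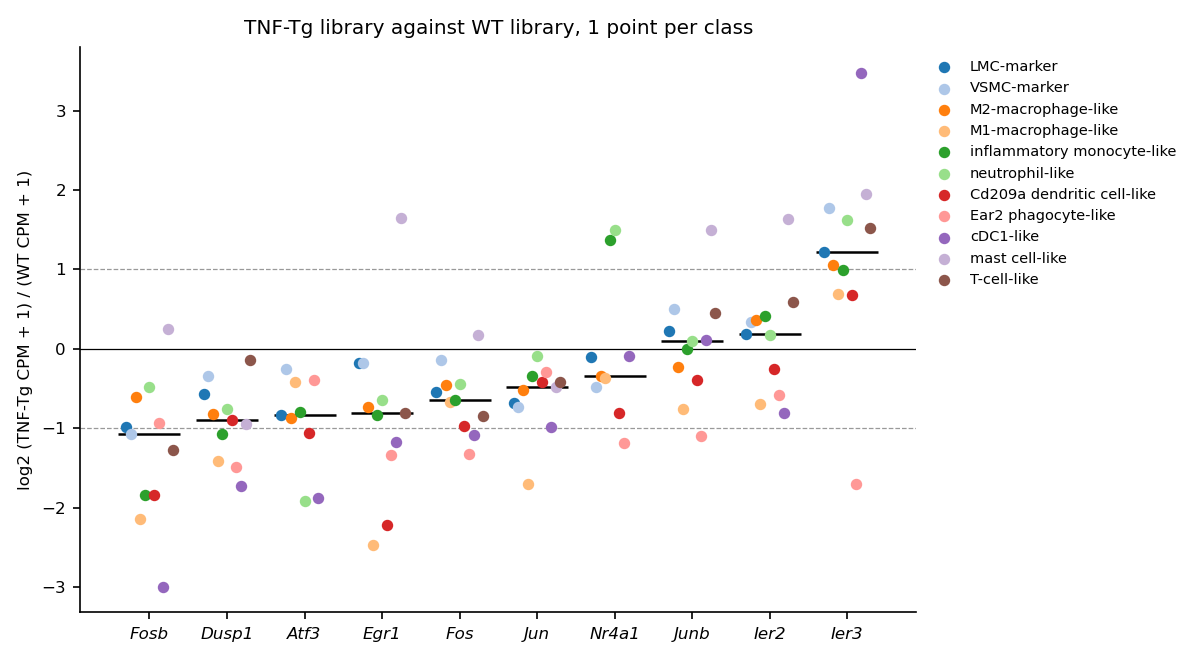
Log2 ratio of TNF-Tg to WT for each member in 11 classes, 1 library per group; short lines mark medians over classes, dashed lines a 2-fold ratio, and members under 10 CPM in both libraries or without a UMI in either are left out. *Dusp1* and *Jun* lie below 0 in 11 of 11 classes and *Ier3* above 0 in 10 of 11.

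*Nr4a1* was set apart from the other members in patrolling monocyte-like cells. This class was chosen for that pattern, so its values are a description. It was gated by *Treml4*, *Spn*, *Ace* and 3 more genes without *Nr4a1*, and held 6, 3, 5 and 208 cells. In TNF-Tg *Ly6c2*, a gate marker of inflammatory monocyte-like cells, was at 32.0 CPM in patrolling and at 699 CPM in inflammatory monocyte-like cells. *Treml4*, a gate marker of the patrolling class, was at 484 and 44.1 CPM, so both differences follow from the gate. *Cx3cr1*, which gated neither class, was at 619 and 230 CPM. *Nr4a1* was at 2257, 1107, 478 and 703 CPM in patrolling monocyte-like cells of tdT1, tdT2, WT and TNF-Tg, and at 279, 375, 62.5 and 162 CPM in inflammatory monocyte-like cells, so it was higher in patrolling cells in 4 of 4 libraries. The sum of the other 9 members was at 9845, 7351, 5123 and 3576 CPM in patrolling and at 6732, 9364, 6084 and 4452 CPM in inflammatory monocyte-like cells, so it was lower in patrolling cells in all but tdT1. In TNF-Tg single members of the 9 went either way: *Dusp1* was at 733 CPM in patrolling and 464 in inflammatory monocyte-like cells, and *Fos* at 726 and 1658 CPM.

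As a share of the UMIs of all 10 members, which does not depend on the total of a class, *Nr4a1* made up 16.4% in patrolling monocyte-like cells of TNF-Tg (exact binomial 95% interval 15.6 to 17.3%, 1253 of 7628 UMIs). The few patrolling cells of the other libraries gave 18.6% in tdT1 (15.9 to 21.7%), 13.1% in tdT2 (7.34 to 21.0%) and 8.53% in WT (5.13 to 13.1%). Inflammatory monocyte-like cells gave 3.98%, 3.85%, 1.02% and 3.52%. In the other 40 sums, all of at least 10 cells, the share ran from 0.0 to 4.68%, with a median of 1.09%. The 4 patrolling values thus lay above every one of these. Those of tdT1, tdT2 and WT rest on 6, 3 and 5 cells, and sums of other classes that small were not among the 40. UMIs are not independent between cells, and the intervals cover counting error only.

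**Figure D5:**
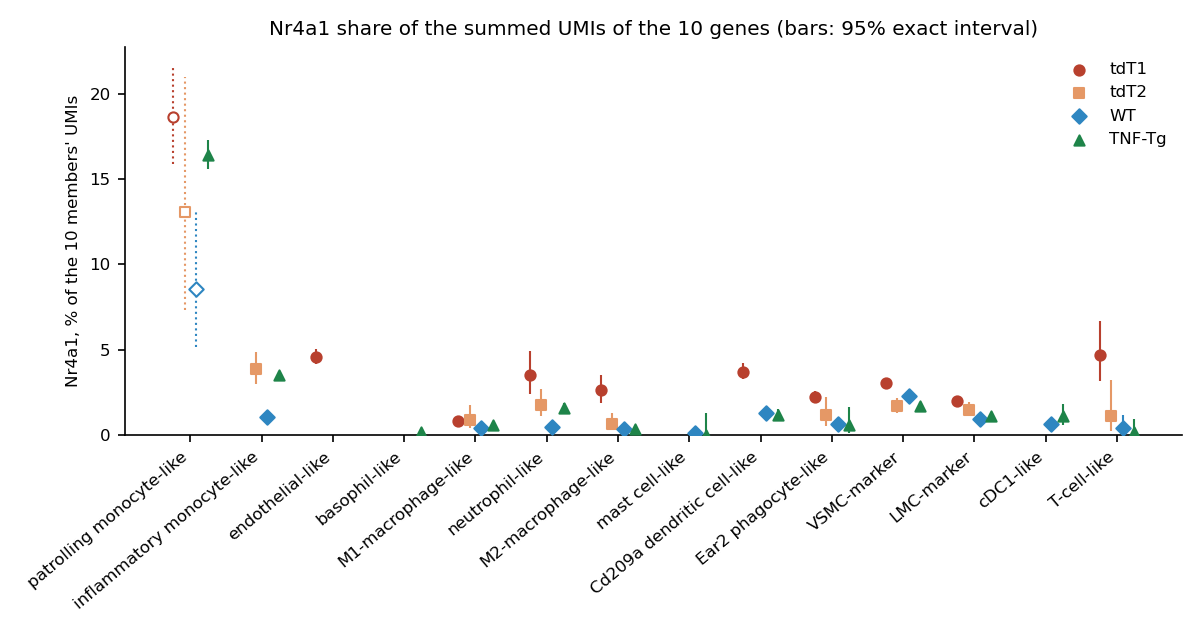
Share of *Nr4a1* among the UMIs of the 10 members (percent) by class, 1 point per library with exact binomial 95% intervals, open where the class had fewer than 10 cells. Patrolling monocyte-like cells lie between 8.53 and 18.6%, and the other sums of at least 10 cells reach 4.68%.

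Shares of cells were set side by side at equal depth. After each cell was thinned to 1500 UMIs, 63.0% of patrolling and 20.03% of inflammatory monocyte-like cells of TNF-Tg had an *Nr4a1* UMI (94.7% and 60.4% before thinning). In T-cell-like cells of TNF-Tg, taken as the class for background, it was 0 of 64 (1.56% before thinning), which allows a share of cells with a UMI of up to 4.69% and sets no limit on cells that express the gene. *Fos* ran the other way, in 49.0% of patrolling and 80.4% of inflammatory monocyte-like cells. In the fit over all sums the patrolling class is 1 sum, from TNF-Tg, and *Nr4a1* is the value it was chosen for, so its log2 difference of 2.33 (SE 0.56) from inflammatory monocyte-like cells is no test. Its adjusted p was 0.028 in DESeq2 and, in edgeR, 0.012 with a stricter gate, 0.98 without the library block, 0.024 without tdT2 and 0.11 without WT, all above the threshold. Among all genes 1.43% were called higher. For the other members the estimates ran from −1.86 (*Ier3*, SE 0.92) to 0.39 (*Dusp1*, SE 0.60), and the SEs of 0.55 to 0.92 leave wide intervals. *Dusp5* (2.62) was the only early-response gene of the list called.

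Genes most like the members were sought over the 41 sums, among 5948 genes of at least 20 CPM on average. The sums share 4 libraries, so these correlations follow the library as well as the class. *Zfp36*, which encodes an mRNA-destabilizing protein of the early response, followed the mean of the 10 members most closely (Pearson r = 0.95), before the histone demethylase gene *Kdm6b* (0.83), *Ccnl1* (0.81), *Wsb1* (0.81), *Ppp1r15a* (0.80), *Nfkbiz* (0.79) and *Neat1* (0.79). Among the members *Atf3* was closest to *Nr4a1* (0.77), and outside them the genes most like it were *Nfkbia*, the inhibitor of NF-κB (0.75), *Midn* (0.71), *Map3k3* (0.70) and *Csrnp1* (0.70), followed by *Coq10b*, *Ptp4a1*, *Coro1b* and *Rlim*. *Egr1* was the member closest to the mean of all 10 (0.89) and *Ier3* farthest from it (0.59).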

How the data were processed

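The authors deposited filtered 10x matrices of UMI counts per gene and cell for all 4 libraries. The submitters' processing notes name Cell Ranger 3.1 and 3.1.0, Seurat 4.0.3 and the mm10 build, and the matrix headers name Cell Ranger 3.1.0 for tdT1 and 6.0.1 for the other 3. The annotation is not given in the sources used here. The counts were not normalized, and no doublet caller was run. Members, lists, classes and tests were chosen with earlier results of these data known.

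Markers were scored per cell after scaling to 10000 UMIs. Each cell joined the class with the highest score where this was at least 0.3, led the next class by 0.1 and rested on at least 3 detected markers. Counts were summed per class and library (at least 10 cells) and tested in edgeR 4.0.16 (R 4.3.3) by the quasi-likelihood test with TMM scaling and filterByExpr. Adjustment ran over all genes tested. Between classes, library was a block, and between sorts there was none. The 10 members and, of each list, the 3 genes with the largest called difference in each direction are named, with the 8 genes most alike over sums, of which 1 is not reported here. CPM used a pseudocount of 1 on the log2 scale. Alternatives were size factors of DESeq2 1.42.0, total UMIs, DESeq2's test, no filter, no cells of low quality (over 10% mitochondrial UMIs or under 500 genes), a margin of 0.25, a minimum of 30 cells, no library block, and each library left out. Scripts were tested on simulated data.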

Additional observations from a re-analysis of the deposited data

Results flagged for a closer look

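Log2 ratios of TNF-Tg to WT ran in opposite directions in pairs of classes. These differences between classes were not tested, since each group is 1 library. The log2 ratio of *Junb* was 1.49 in mast cell-like cells and -1.1 in Ear2 phagocyte-like cells. *Egr1* stood at 1.64 in mast cell-like and at -2.47 in M1-macrophage-like cells. The TNF-Tg library held 21 mast cell-like and 16 Ear2 phagocyte-like cells. These ratios were scaled to total UMIs, and the median member ratio in mast cell-like cells changed sign after TMM scaling.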

How the results depend on the processing

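Numbers of members called in edgeR changed most for the sorts, where each side had 2 libraries. Between stromal and leukocyte classes (2 members, both lower) they were 4 with DESeq2's size factors, 4 in DESeq2 and 4 with at least 30 cells, each with 2 higher and 2 lower. They were 5 without a filter (2 higher and 3 lower) and 2 to 5 with a library left out (1 higher each time). Without the library block the number was 1, a higher member, so both lower calls were lost. Neutrophil-like against other leukocyte classes (7) gave 4 without the block and 5 to 8 with a library left out. LMC-marker against VSMC-marker (0) gave 1 without a filter. Patrolling against inflammatory monocyte-like rested on 1 patrolling sum and on *Nr4a1*, the value it was chosen for, so it is no test. Its call was lost in the settings named above. Between sorts, LMC-marker (0) gave 1 in DESeq2, 4 without a filter and 0 to 5 with a library left out. VSMC-marker (0) gave 1, 4 and 0 to 4 likewise. M2-macrophage-like (2) could not be run with the wider margin, and without cells of low quality its tdT1 sum dropped out, which left tdT2 alone. M1-macrophage-like (2) gave 0 in DESeq2, without a filter, without cells of low quality and with the wider margin, and 0 to 2 with a library left out. Ear2 phagocyte-like (0) gave 8 without a filter, 10 with the wider margin and 0 to 10 with a library left out. T-cell-like (0) gave 1 in DESeq2, 1 without a filter and 0 to 5 with a library left out. Without tdT2, where tdT1 stands alone and is assumed to vary like the other group, the counts were 5, 4, 6, 0, 10 and 5 in the order of these classes. The median member ratio of TNF-Tg to WT in mast cell-like cells (0.24) was −0.41 after TMM scaling. The causes were not tested. Libraries could not be paired with each other, since each held its own pool of mice. Classes were compared within libraries through the block. Neutrophil-like calls of single members kept their direction and call in 76 of 84 alternatives, and stromal ones in 19 of 24. Depth limits classes of few cells most, above all leukocytes in the tdT libraries. The wider margin may have taken the Ear2 phagocyte-like sum of tdT2 (11 cells) below the minimum, which would leave tdT1 alone.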
